A study of Mus musculus with 6 samples.

Results

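The 7 genes described here encode the machinery of glycinergic transmission: the glycine receptor subunits Glra1, Glra2, Glra3 and Glrb, the scaffold gephyrin (Gphn), and the plasma membrane glycine transporters Slc6a9 (GlyT1) and Slc6a5 (GlyT2). They were chosen by symbol, and 7 of 7 were among the 15465 genes measured. Expression was measured by RNA sequencing of retina from wild-type C57BL6/J mice, the only group, with 3 biological replicates of 2 technical replicates each and 5 mice pooled per library. No age or sex is stated for the mice. Each biological replicate, as the sample titles number them, has 1 column of values that its technical replicates share. The source names number the same samples in another way and pair them across these replicates. Were the source names right, columns would share material, and every SD and p-value below therefore depends on the titles.

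Glycine opens a chloride channel built of alpha subunits, which bind the ligand, and the beta subunit, which binds gephyrin and so holds the receptor at the synapse. In the retina, glycine is released mostly by small-field amacrine cells, among them the AII cell of the rod pathway, onto bipolar, ganglion and other amacrine cells. These amacrine cells take up glycine through Slc6a9, whereas Slc6a5 is the transporter of glycinergic axon terminals in spinal cord and brainstem.

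Values are reads per kilobase of transcript, scaled to the library's reads (RPKM), as the authors deposited them. The unit was inferred from the values. Being per length, it allows levels to be compared between genes. Column sums were between 249532 and 302634 RPKM, and how many reads lie behind them is not known. Rod markers fitted the retina label, with means of 767 RPKM (Nrl) or more in 5 of 5 and 5103 RPKM for Gnat1, the rod transducin. Markers of lens, pigment epithelium, skeletal muscle and surface epithelium were also present and differed between pools. The 6 lens markers together had 454, 221 and 1155 RPKM in replicates 1, 2 and 3, and the 5 pigment epithelium markers had 371, 351 and 188 RPKM, with none of either list at 0. The pigment epithelium markers did not move together. Ttr, Dct, Pmel and Mlana were lowest in replicate 3. Rpe65, a row of the uncertain kind described below, had 6.25, 20.06 and 6.74 RPKM and was highest in replicate 2. In bulk tissue, fewer cells of a type and less RNA per cell cannot be told apart.

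The uptake transporter Slc6a9 was the most abundant of the 7. Slc6a9 had 86.26, 84.95 and 71.32 RPKM in replicates 1, 2 and 3, a mean of 80.8 ± 8.27 RPKM (SD, n = 3). It ranked 451 of 15465 genes by mean. The lowest pool was replicate 3, and even there Slc6a9 stood above the highest value of every other member. The beta subunit Glrb followed with 13.87, 15.89 and 12.85 RPKM (mean 14.2 ± 1.55, SD, n = 3). Gephyrin, which also serves in molybdenum cofactor synthesis in every tissue, had 12.13, 13.58 and 12.68 RPKM (mean 12.8 ± 0.732, SD, n = 3). Their ranges overlapped. Replicate 2 was the highest pool for both as deposited, but it also had the largest column sum, and after scaling Gphn was highest in replicate 3 (12.3, 12.4 and 13.6 RPKM).

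The ligand-binding subunits and the second transporter were lower. Glra1, the alpha subunit of adult spinal cord receptors, had 5.34, 4.24 and 5.98 RPKM (mean 5.19 ± 0.880, SD, n = 3). Slc6a5 had 4.03, 4.34 and 4.04 RPKM (mean 4.14 ± 0.176, SD, n = 3). Slc6a5 was nearly level across the pools, while Glra1 was lowest in replicate 2 and highest in replicate 3. Glra2, the alpha subunit that prevails in the embryonic nervous system, had 3.20, 4.25 and 3.98 RPKM (mean 3.81 ± 0.545, SD, n = 3). Glra3, an alpha subunit found in spinal pain circuits and in the retina, had 3.78, 3.44 and 3.81 RPKM (mean 3.68 ± 0.206, SD, n = 3). Glra2 was lowest in replicate 1 and Glra3 in replicate 2, and the ranges of these alpha subunits overlapped in part.

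**Figure D1:**
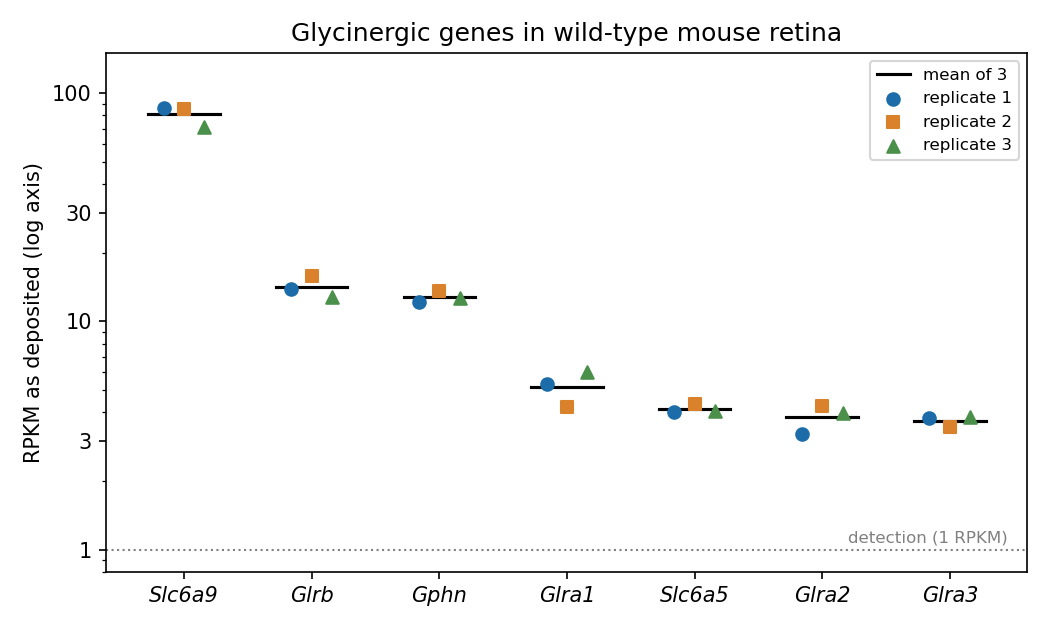
Deposited RPKM (log axis) of the 7 genes, ordered by mean. Each symbol is 1 of 3 replicates, the bar is their mean, and the dotted line is the detection level of 1 RPKM. Slc6a9 stands at 71.32 RPKM or more, Glrb and Gphn lie between 12.13 and 15.89, and the other 4 genes lie between 3.20 and 5.98.

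By this measure 7 of 7 genes were detected at 1 RPKM or more in every replicate, where 77.5% of all genes were. A mean of 10 RPKM or more was reached by 3 of 7, where 37.8% of all genes reached it. The median of the 7 means was 5.19 RPKM and that of all genes was 6.26 RPKM. Apart from Slc6a9, whose mean exceeded that of 97.1% of genes, the members therefore lay from 38.0% (Glra3) to 71.6% (Glrb) of the way up the distribution of means.

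The order of levels had 3 tiers. In 18 of 21 pairs of members the same gene was higher in 3 of 3 replicates, and in 16 of 21 pairs the ranges did not overlap. Slc6a9 exceeded Glrb by 2.50 ± 0.11 on the log2 scale (5.66-fold; SD, n = 3). Gphn exceeded Glra1 by 1.30 ± 0.31 (2.46-fold). Neighbours inside a tier were closer. Glrb over Gphn was 0.15 ± 0.11, Glra1 over Slc6a5 was 0.31 ± 0.30, Slc6a5 over Glra2 was 0.12 ± 0.17 and Glra2 over Glra3 was 0.042 ± 0.27, all on the log2 scale. These neighbours overlapped in range, and between pools Glra1 changed places with Slc6a5 and Glra2, and Glra2 with Glra3. Ratios were taken within a replicate on log2(RPKM + 0.1). An exact sign-flip test over 3 replicates, 2-sided, cannot give a p below 0.25, so none of these differences can pass 0.05.

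The alpha subunits are close relatives, and how well reads can tell them apart bears on their levels. The 60 coding bases most alike in Glra1, Glra2 and Glra3 are printed from the GENCODE M21 transcripts (GRCm38, another build than the mm9 of the measurements) with the same stretch of Glra4 and Glrb, 5′ to 3′ on the coding strand. Capitals mark bases that differ from Glra1.
Glra1: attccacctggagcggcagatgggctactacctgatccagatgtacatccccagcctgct
Glra2: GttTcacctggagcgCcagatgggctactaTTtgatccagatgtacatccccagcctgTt
Glra3: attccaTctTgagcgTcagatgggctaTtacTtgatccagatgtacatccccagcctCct
Glra4: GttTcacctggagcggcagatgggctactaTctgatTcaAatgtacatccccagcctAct
Glrb: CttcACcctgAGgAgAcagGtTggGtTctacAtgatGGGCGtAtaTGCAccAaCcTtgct

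The stretch lies in exon 7 of Glra1 (chr11:55527385-55527444, minus strand), exon 7 of Glra2 (chrX:165252350-165252409, minus strand), exon 7 of Glra3 (chr8:56089009-56089068, plus strand), exon 7 of Glra4 (chrX:136767314-136767373, minus strand) and exon 8 of Glrb (chr3:80855853-80855912, minus strand). Even in this stretch Glra2, Glra3 and Glra4 each differed from Glra1 at 6 of 60 bases, and Glrb differed at 25. Over the aligned coding sequence the alpha subunits were 70.2% to 73.5% identical to each other and 54.5% to 57.0% identical to Glrb. The longest identical run between transcripts of any alpha pair was 26 bases, and between Glrb and an alpha subunit 14 bases. Words of 50 bases, a length set for this comparison and not taken from the reads, were then looked up. None of the 50-base words of the Glra2, Glra3, Glrb, Gphn or Slc6a5 transcript occurred in a transcript of another gene. In Glra1, 92 of 1988 words (4.63%) did, all in the antisense gene Gm12236, which overlaps its exon 9.

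No alpha subunit held most of the alpha transcripts. Glra4, the remaining mouse alpha gene and not among the 7, was added to the sum with 1.60, 1.47 and 1.57 RPKM. Glra1 then held 38.4%, 31.6% and 39.0% of the summed alpha RPKM in replicates 1, 2 and 3 (mean 36.3% ± 4.07, SD, n = 3). Glra2 held 23.0%, 31.7% and 25.9% (mean 26.9% ± 4.44). Glra3 held 27.2%, 25.7% and 24.8% (mean 25.9% ± 1.17) and Glra4 held 10.9% ± 0.633. Glra1 led in replicates 1 and 3, and in replicate 2 Glra1 and Glra2 were level. These shares are per transcript length. Multiplied by transcript length, which makes them shares of reads, they were 22.8% for Glra1 and 47.6% for Glra3, whose annotated transcript is 6508 bases long against 3150 for Glra2.

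**Figure D2:**
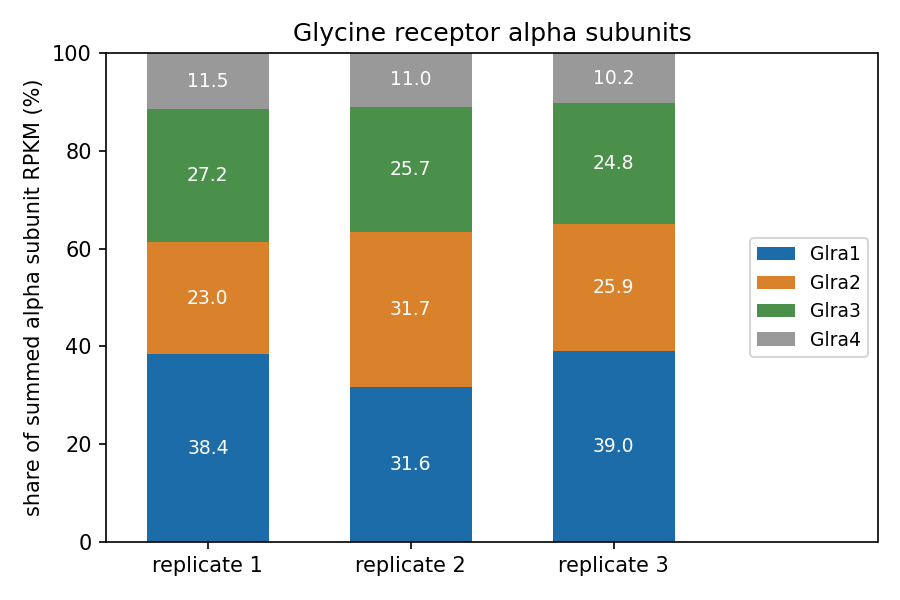
Share of each alpha subunit gene in the summed alpha RPKM (vertical axis, %), 1 stacked bar per replicate with the share printed in each block. Glra1 takes 31.6% to 39.0%, Glra2 and Glra3 take 23.0% to 31.7%, and Glra4 takes 10.2% to 11.5%.

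The beta subunit was about as abundant as all alpha subunits together. Glrb had the 13.87, 15.89 and 12.85 RPKM given above, against 13.92, 13.40 and 15.34 RPKM for the 4 summed alpha subunits. The log2 ratio was -0.0049 ± 0.25 (SD, n = 3), with Glrb higher in 1 of 3 replicates (exact sign-flip test, 2-sided, p = 0.75). It was -0.0052, 0.24 and -0.25 in replicates 1, 2 and 3, so the SD of 0.25 covers both directions. Without Glra4 the ratio was 0.16, without replicate 3 it was 0.12, and without replicate 2 it was -0.13. Multiplied by transcript length it was -0.23, and with the longest coding transcripts -0.25. Gephyrin had 0.904 times the level of Glrb and was lower in 3 of 3 replicates (log2 ratio -0.15 ± 0.11, exact sign-flip test, 2-sided, p = 0.25, the smallest possible). Multiplied by transcript length this ratio changed sign, to 0.035.

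The glycine transporters were far apart. Slc6a9 exceeded Slc6a5 20.9-fold, 19.2-fold and 17.3-fold in replicates 1, 2 and 3. The log2 ratio was 4.25 ± 0.14 (SD, n = 3; higher in 3 of 3 replicates, exact sign-flip test, 2-sided, p = 0.25, the smallest possible). Multiplied by transcript length, the ratio becomes one of reads, and its size depends on the length taken for Slc6a5. RefSeq-linked annotation gives 2467 bases and the longest coding transcript 7065. The log2 ratio of reads was 4.77 with the first and 3.26 with the second. Which lengths lie behind the deposited values is not known. The 60 coding bases most alike between the transporters, printed to show how far they have diverged, had 10 differences, with capitals for bases that differ from Slc6a9.
Slc6a9: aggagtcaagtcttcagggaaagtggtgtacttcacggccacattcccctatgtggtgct
Slc6a5: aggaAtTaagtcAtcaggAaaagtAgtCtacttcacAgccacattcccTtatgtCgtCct

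This stretch spans exons 6 and 7 of both genes (GRCm38, chr4:117863540-117863726 for Slc6a9 and chr7:49930096-49936215 for Slc6a5, plus strand, introns included). Their coding sequences were 59.9% identical, and the longest identical run was 15 bases. While no 50-base word of Slc6a5 occurred in Slc6a9, the 3′ end of Slc6a9 overlaps a neighbour. In GENCODE M21, 1258 bases of its exon 14 and 171 bases of exon 13 lie opposite exons of Ccdc24, a coding gene on the other strand. Of its words of 50 bases, 1412 of 3430 (41.2%) occurred in Ccdc24 or Gm17114. Ccdc24 had 119.09, 129.42 and 111.41 RPKM, and 121.1, 118.6 and 119.5 RPKM after scaling for the spread between columns. Scaled Slc6a9 was 87.7, 77.9 and 76.5 RPKM. As deposited, both genes were lowest in replicate 3. After scaling, Slc6a9 was lowest in replicate 3 and Ccdc24 in replicate 2. An order over 3 columns cannot tell whether reads were shared. No label states whether the counting used strand, and without it the reads of this region cannot be told apart, so the level of Slc6a9 and its ratios are uncertain by an amount that was not tested.

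Slc6a9 was then set beside genes of inhibitory amacrine cells. It exceeded Slc32a1, the vesicular transporter that loads both glycine and GABA, with 62.30, 54.56 and 47.90 RPKM. The log2 ratio of Slc6a9 to Slc32a1 was 0.56 ± 0.085 (1.47-fold; SD, n = 3), in 3 of 3 replicates (exact sign-flip test, 2-sided, p = 0.25). Slc6a5, by contrast, stood below Slc32a1, with a log2 ratio of -3.69 ± 0.20. Slc6a9 exceeded Gad1, a GABA-synthesising enzyme, by 0.30 ± 0.10 on the log2 scale in 3 of 3 replicates, and Gad1 had 66.50, 74.98 and 56.49 RPKM. Other leading genes of the amacrine list, of which 11 of 16 were among the rows, were Pax6, Gjd2 and Prox1. Pax6 (54.3 ± 6.38 RPKM) is a transcription factor kept in amacrine and ganglion cells. Gjd2 (25.9 ± 2.51 RPKM) is a gap junction protein present in AII cells, and Prox1 (21.3 ± 1.54 RPKM) is found in AII and horizontal cells. In bulk retina these levels cannot be assigned to amacrine cells alone. Further genes of the list were Meis2 (15.1 ± 1.49 RPKM), Tcf4 (9.89 ± 0.329), Dab1 (7.95 ± 0.476), Gad2 (5.68 ± 0.227), Ebf3 (5.56 ± 0.386) and Slc17a8 (2.50 ± 0.258).

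Summed glycine receptor alpha transcripts were below the sum of the GABA rho receptors, another class of inhibitory receptor in the retina. This comparison was chosen with the values known. It leaves out Glrb (mean 14.2 RPKM), so the glycine side is a part of the receptor's subunits. Summed Glra1 to Glra4 came to 14.2 ± 1.00 RPKM, against 87.7 ± 6.41 RPKM for the summed GABA rho subunits Gabrr1 to Gabrr3, the receptors of bipolar cell terminals (SD, n = 3 each). The log2 ratio of glycine alpha to GABA rho subunits was -2.62 ± 0.20, and glycine alpha subunits were lower in 3 of 3 replicates (exact sign-flip test, 2-sided, p = 0.25, the smallest possible). The difference lay in Gabrr1 (39.3 ± 3.75 RPKM) and Gabrr2 (43.0 ± 3.09 RPKM). Gabrr3 had 5.37, 5.02 and 5.81 RPKM, within the range of Glra1.

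**Figure D3:**
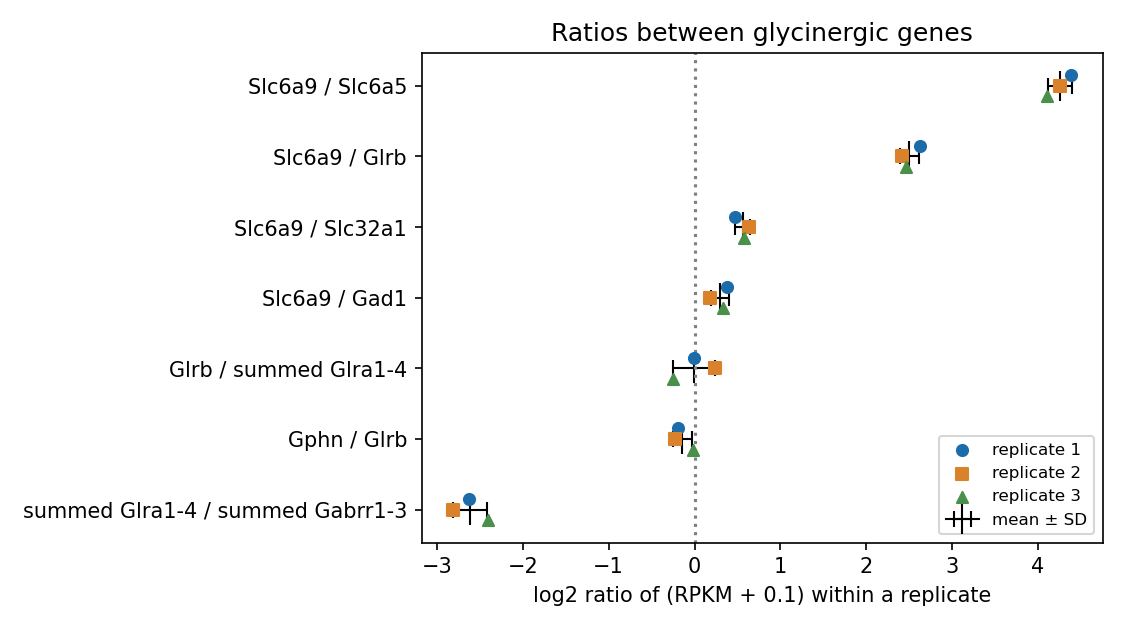
Log2 ratios of (RPKM + 0.1) within a replicate for 7 pairs of genes or summed genes. Symbols are the 3 replicates, the cross bar is their mean and SD, and the dotted line marks equal levels. Slc6a9 over Slc6a5 lies between 4.11 and 4.39, while Glrb over the summed alpha subunits lies on both sides of 0.

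The spread between pools was tested across all genes. Each gene's variance of log2(RPKM + 0.1), after scaling, was set against limma's robust trended prior variance, with Benjamini-Hochberg adjustment over the 12562 genes whose mean reached 1 RPKM. At adjusted p under 0.05 the test called 5.44% of genes (683), and 0 of the 7 members. At an unadjusted p under 0.05 it also gave 0 of 7, in this setting. Over the other settings Glra1 was the 1 member under 0.05, with an unadjusted p of 0.0497 without replicate 1 (limma, adjusted p = 0.702). Without the symbols described next it had 0.0185 (limma, adjusted p = 0.563). With all 3 pools, limma's non-robust prior called 0 of 7 and 0 of all genes. Of the 683 calls, 627 (91.8%) had a symbol that extends another symbol by a digit, or is such a shorter symbol, and none of the members has such a symbol. Without these symbols the test called 0.936% of 10474 genes and again 0 of 7 members. Among tissue markers, the test of all 12562 genes called 5 of 6 for lens and 3 of 5 for pigment epithelium. It called 2 of 4 for skeletal muscle and 3 of 4 for surface epithelium. Among these calls, Rpe65 of pigment epithelium and Krt12 of surface epithelium had a symbol of the extended kind. For amacrine cells the test called 0 of 4, Slc6a9 among them. It also called 0 of 5 each for rods, bipolar cells, ganglion cells and Muller glia. For cones it called 0 of 4 and for horizontal cells 0 of 3, so this was not particular to amacrine cells.

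After scaling and with 3 pools, Glrb had the lowest SD among the members and Glra1 the highest. Glrb then had 14.1, 14.6 and 13.8 RPKM, an SD of 0.040 on the log2 scale, lower than all but 5.17% of genes tested. Slc6a5 had an SD of 0.061, Gphn 0.077 and Slc6a9 0.11 on that scale, each below the prior SD at its level. The median over all genes tested was 0.15. Glra3 and Glra2 had 0.19 each, near the prior SD of 0.18. Glra1 had an SD of 0.36 with 5.43, 3.89 and 6.41 scaled RPKM, and the highest pool was 1.65 times the lowest. The ranking of members depends on these settings. With no scaling the SD was 0.15 for Glrb, above Slc6a5 (0.059), Glra3 (0.080) and Gphn (0.081), and 0.25 for Glra1. Without replicate 2 it was 0.16 for Glra1, below Glra2 at 0.27. Slc6a9 was lowest without replicate 1 (0.016), and Gphn without replicate 3 (0.014). An SD above that of Glra1 was found in 9.11% of genes tested (adjusted p = 0.71 for Glra1, between 0.563 and 0.991 over all settings tried). The order of pools for Glra1, lowest in replicate 2 and highest in replicate 3, was also that of the summed lens markers given above. An order over 3 columns cannot tell whether they are linked, and the part of the lens markers in the spread of Glra1 was not tested.

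**Figure D4:**
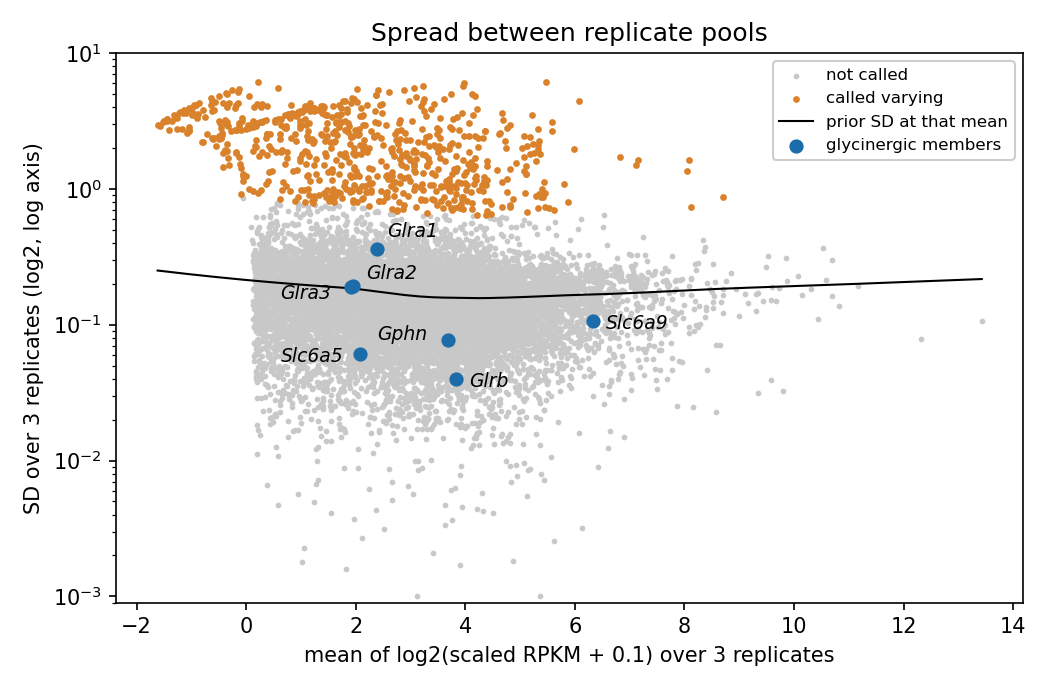
SD over 3 replicates (log2, log axis) against mean log2(scaled RPKM + 0.1) for 12562 genes. Grey points were not called, orange points were called varying, the line is limma's prior SD, and blue points are the 7 members; 2 genes with an SD under 0.001 are drawn at 0.001. Glra1 lies above the line at 0.36, Glra2 and Glra3 lie together at 0.19, and the other 4 lie below the line.

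Which genes resemble Slc6a9 most was read from the distance over the 3 replicates in log2(scaled RPKM + 0.1). Nearest were Paqr4 at a distance of 0.069, Nisch at 0.071 and Otx2 at 0.091. With 3 columns of 1 group this likeness is mainly one of level, and 24 genes lay within 0.2.

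Other genes of glycine signalling and supply were taken as a list of 32, of which 32 were among the rows. Of these 28 were detected in every replicate (87.5%, where 77.5% of all genes were). A mean of 10 RPKM or more was reached by 17 of 32, where 37.8% of all genes reached it. The median of the 32 means was 11.4 RPKM, where that of all genes was 6.26 RPKM. Of the 29 that passed the mean filter, 1 was called varying between pools, where 5.44% of all genes were. That gene was Slc6a14, an amino acid transporter, with 0.04, 0.10 and 114.39 RPKM (adjusted p = 1.06e-05, limma). Its symbol extends another by a digit, and rows of that kind are uncertain. Slc6a14 is among the 17 above through replicate 3 alone. Slc6a15 stood at 171.71, 149.81 and 0.05 RPKM, high in the replicates where Slc6a14 was low.

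Chloride handling, which sets the direction of the glycine response, was uneven. Slc12a5, the extruder KCC2, had 169.65, 145.51 and 156.58 RPKM (mean 157 ± 12.1, SD, n = 3). Slc12a2, the importer NKCC1, had 4.31, 4.29 and 4.34 RPKM, a narrow range as deposited. Among proteins of the inhibitory synapse, 7 of 7 were detected, where 77.5% of all genes were. The highest was the gephyrin-binding dynein light chain Dynll2 (89.3 ± 5.43 RPKM). Nlgn2, the adhesion protein of inhibitory synapses, had 36.6 ± 3.55 RPKM. The 3 molybdenum cofactor genes, whose pathway gephyrin completes, had means between 4.32 and 15.4 RPKM.

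Transporters of the list ran from the highest to the lowest values. Slc38a3, a glutamine transporter of Muller glia, had 277.70, 316.41 and 261.98 RPKM and the highest mean of the list. At the low end Slc6a17 had 0.357 RPKM, with a symbol of the uncertain kind, and Slc38a5, which also carries glycine, had 0.507 RPKM in the mean. Neither was detected at 1 RPKM. For glycine and serine metabolism 9 of 10 genes were detected, where 77.5% of all genes were. The 4 parts of the glycine cleavage system stood at 24.6 (Dld), 22.9 (Gcsh), 14.4 (Amt) and 9.74 (Gldc) RPKM. Mitochondrial Shmt2, which converts serine to glycine, had 20.83, 24.62 and 16.48 RPKM. Cytosolic Shmt1, with the same reaction, was under the detection level in 3 of 3 replicates at 0.70, 0.90 and 0.92 RPKM.

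**Figure D5:**
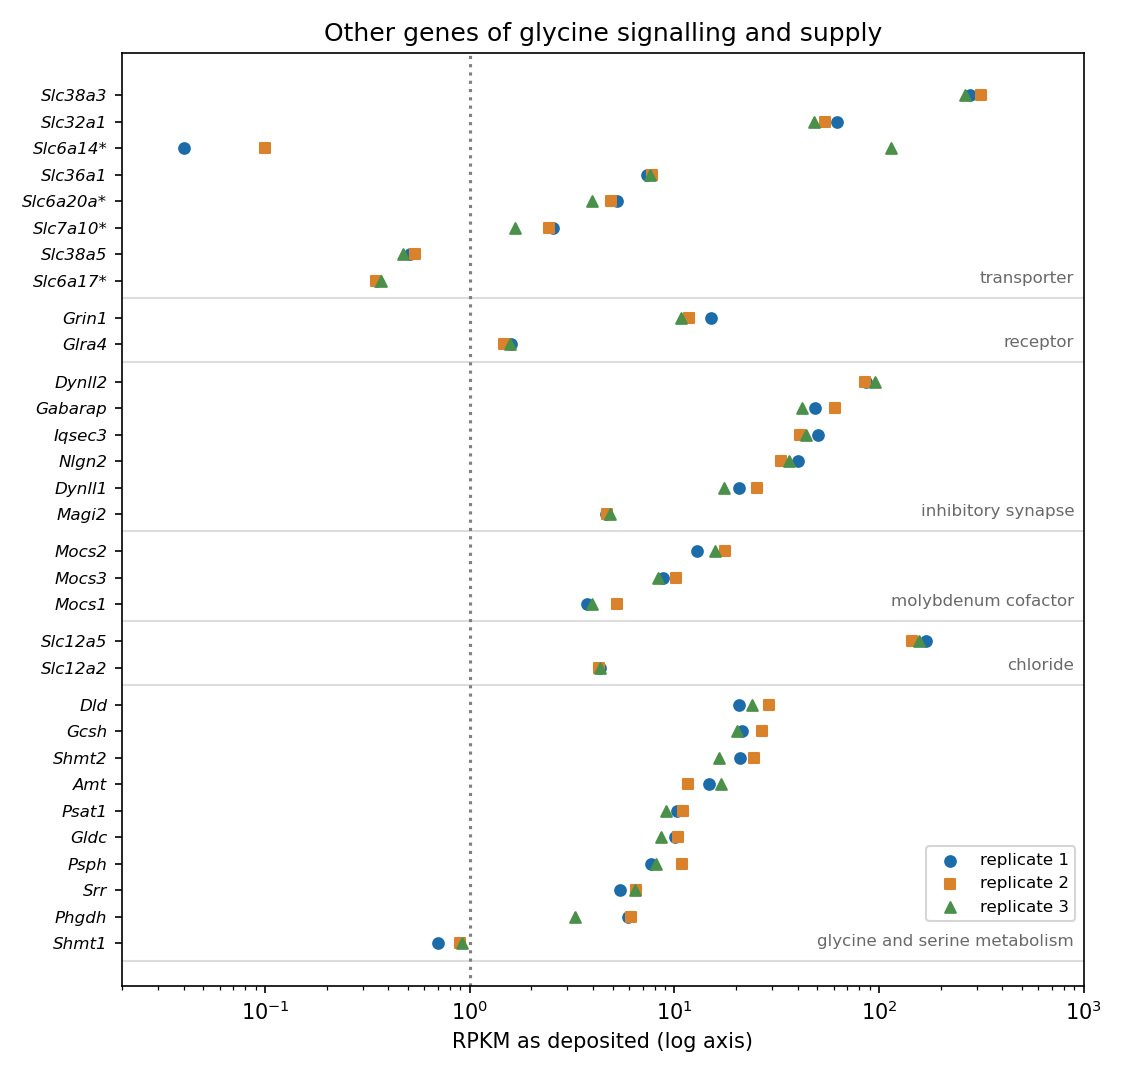
Deposited RPKM (log axis) of 31 further genes of glycine signalling and supply, by role, with 1 symbol per replicate. The dotted line is 1 RPKM and an asterisk marks a symbol that extends another by a digit. Slc38a3 and Slc12a5 stand highest, and Slc6a14 runs from 0.04 to 114.39 RPKM.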

How the data were processed

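RNA of wild-type retina, pooled from 5 mice per library, was sequenced in 6 samples, of which 3 tables were deposited. Per the submitters' processing notes, GSNAP and HTSeq were used with build mm9. Versions, annotation and strand setting are not given there. The deposited values were taken as RPKM by the authors, inferred from decimals that, multiplied by transcript length in kb, added up to between 728590 and 828466, under the scale of 1000000. FPKM would look the same. Depth is unknown, so no interval that needs it is given. Each table had 15468 rows. Of these, 3 symbols occurred on 2 identical rows, which left 15465 genes.

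Levels are deposited values with their SD. For the test of spread, values were divided by trimmed-mean factors (0.983, 1.09 and 0.932; 30% of ratios and 5% of means trimmed per end), which in log2 were -0.024, 0.13 and -0.10. A pseudocount of 0.1 was added, which understates differences of low genes. limma 3.58.1 (R 4.3.3, statmod 1.5.0) gave the prior variance for an F test with Benjamini-Hochberg adjustment, tested on simulated data. MAFFT 7.526 aligned coding sequences of GENCODE M21. Lengths are medians over RefSeq-linked transcripts. Members, lists and the robust prior were chosen with earlier results of these data known. All 7 members are named, and a few genes of the other lists are not reported here. Of the other lists, the 4 highest, the 4 lowest and all called genes of the pathway list and the 4 highest amacrine genes were named by rule, marker lists are given mostly by counts and sums in place of their 3 highest genes, and further genes named were chosen after their values were seen. Replicates are pools by title, and spread between them may be technical in part.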

Additional observations from a re-analysis of the deposited data

How the results depend on the processing

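Settings tried were each replicate left out, pseudocount 1, no filter on low values, other scalings, a non-robust prior, removal of symbols that extend another by a digit, multiplication by transcript length, and omission of Glra4. The last, the longest coding transcript, and removal of those symbols from the pathway list were chosen after seeing the data. Genes varying between replicates numbered 0 with the non-robust prior (704 at an unadjusted p under 0.05), 98 without the extended symbols, and 303 to 473 when 1 replicate was omitted (303 without replicate 2), against 683. Members called varying were 0 in all 10 settings. Multiplied by transcript length (longest coding transcript), shares were 22.8% (24.1%) for Glra1, 47.6% (46.8%) for Glra3 and 5.64% (5.54%) for Glra4. Log2 ratios were then 4.77 (3.26) for Slc6a9 to Slc6a5, 0.88 (0.88) for Slc6a9 to Slc32a1, -0.23 (-0.25) for Glrb to the alpha subunits and 0.035 (0.090), a reversed sign, for Gphn to Glrb. With pseudocount 1 Slc6a9 to Slc6a5 was 3.99. Without Glra4, shares were 40.8% for Glra1 and 29.1% for Glra3, and Glrb to the alpha subunits was 0.16, reversed in sign. The median of the pathway list was 13.0 RPKM without the extended symbols, against 10.4 over replicates. The cause of the moves in calls was not tested; those with length follow from the multiplication. With a replicate left out, Glrb to alpha subunits ran from -0.13 to 0.12. No paired analysis was possible because there was 1 group. Unknown depth limits the precision that can be stated for the low alpha subunits.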
